A study of Mus musculus with 6 samples.

Results

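The 37 genes described here code for proteins that sense DNA damage, signal it and repair it. They were taken from a written list of damage kinases, break sensors and repair factors and were matched by symbol to the deposited gene table. The list was drawn up because protein phosphatase 4 (PP4) acts on phosphoproteins of the damage response, and measured values were not part of the rule. All 37 were found among the 54532 genes of the table, and all 37 were among the 12269 genes that passed the filter on low counts and were tested.

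RNA was sequenced from BV2 cells, an immortalised mouse microglial line, in 2 groups. The tested cells carried a knockdown of SMEK1, a regulatory subunit of PP4 whose mouse gene is listed as Ppp4r3a (3 libraries, A, B and C). The cells they were set against carry the genotype label WT (3 libraries, A, B and C), although the series' own design statement names both groups as derivatives of the knockdown kind. Both groups were grown in the same serum-supplemented medium with no labelled treatment, so no DNA-damaging agent is part of the comparison. No source used here states whether a control construct was given to the WT cells, how many clones stand behind each group, or whether its 3 libraries are from separate cultures. The p-values therefore measure only the spread between these libraries, and an effect of the knockdown cannot be told apart from other differences between the cultures.

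A DNA break is recognised by protein complexes that recruit the kinases ATM, ATR and DNA-PK, and these phosphorylate histone H2AX, mediator proteins and the checkpoint kinases CHK1 and CHK2. Breaks are then joined end to end by non-homologous end joining or copied from the sister chromatid by homologous recombination, in which a protein filament is built on single-stranded DNA with the help of the BCDX2 and CX3 complexes and of the BRCA1 and BRCA2 complexes. PP4 is known to remove phosphates from several of these proteins. Such regulation acts on proteins, and transcript levels do not report on it.

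The libraries held 18627425 to 21131557 counts each in the knockdown group and 18036591 to 18708438 each in the WT group. A single count was thus worth 0.0444 to 0.0597 CPM, the TMM-scaled count relative to library size. Ppp4r3a, the targeted gene, had 2.51, 5.42 and 4.25 CPM in knockdown A, B and C, against 18.1, 13.5 and 15.3 CPM in WT A, B and C. The log2 fold change, knockdown over WT, was -1.94 (SE 0.24, adjusted p = 8.22e-05 by the quasi-likelihood test of edgeR). This test, with p-values adjusted across all 12269 genes by the Benjamini-Hochberg method, gave every gene call below, at an adjusted p under 0.05. The A libraries, and knockdown B in the other direction from knockdown A, stood apart for many repair genes. Knockdown A was the lowest of the 6 libraries for 19 of the 37 genes, whereas it was lowest for 20.7% of all genes tested. WT A was the highest library for 13 of the 37, whereas it was highest for 18.0% of all genes tested. Knockdown B was the highest library for 11 of the 37, whereas it was highest for 18.5% of all genes tested. For the 37 genes, values without both A libraries are therefore given where they change a call, and that fit is not held to be the better one.

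Of the 37 genes, 4 rose and 3 fell in the knockdown libraries, and 30 did not pass the test. Rad51b, Rad51c, Bard1 and Xrcc5 rose, with log2 fold changes of 0.44 to 0.88, and Rad54l, Blm and Atm fell, with log2 fold changes of -0.64 to -1.08. The 7 called genes were 18.9% of the list, below the 40.1% of all genes tested that were called in this comparison, of which 20.5% were higher and 19.6% lower in the knockdown. The ranges of the groups did not overlap for 9 of the 37 genes, or 24.3%, whereas they did not overlap for 50.9% of all genes tested. The median log2 fold change over the 37 genes was -0.06, beside 0.01 over all genes tested, and it was 0.10 beside 0.17 when libraries were scaled by their totals instead of by TMM. With library totals 6 of the genes were called higher and 1 lower, and 71.3% of all calls were higher, compared with 51.1% under TMM.

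The repair genes were read at lower levels than most genes. The median of their mean levels was 6.46 CPM, beside 19.7 CPM over all genes tested. Below a mean of 10 CPM, a boundary chosen after the data were seen, 5 of 23 repair genes were called, or 21.7%, beside 30.5% of all genes at that level. At 10 CPM or more 2 of 14 were called, or 14.3%, beside 45.6% of all genes at that level.

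**Figure D1:**
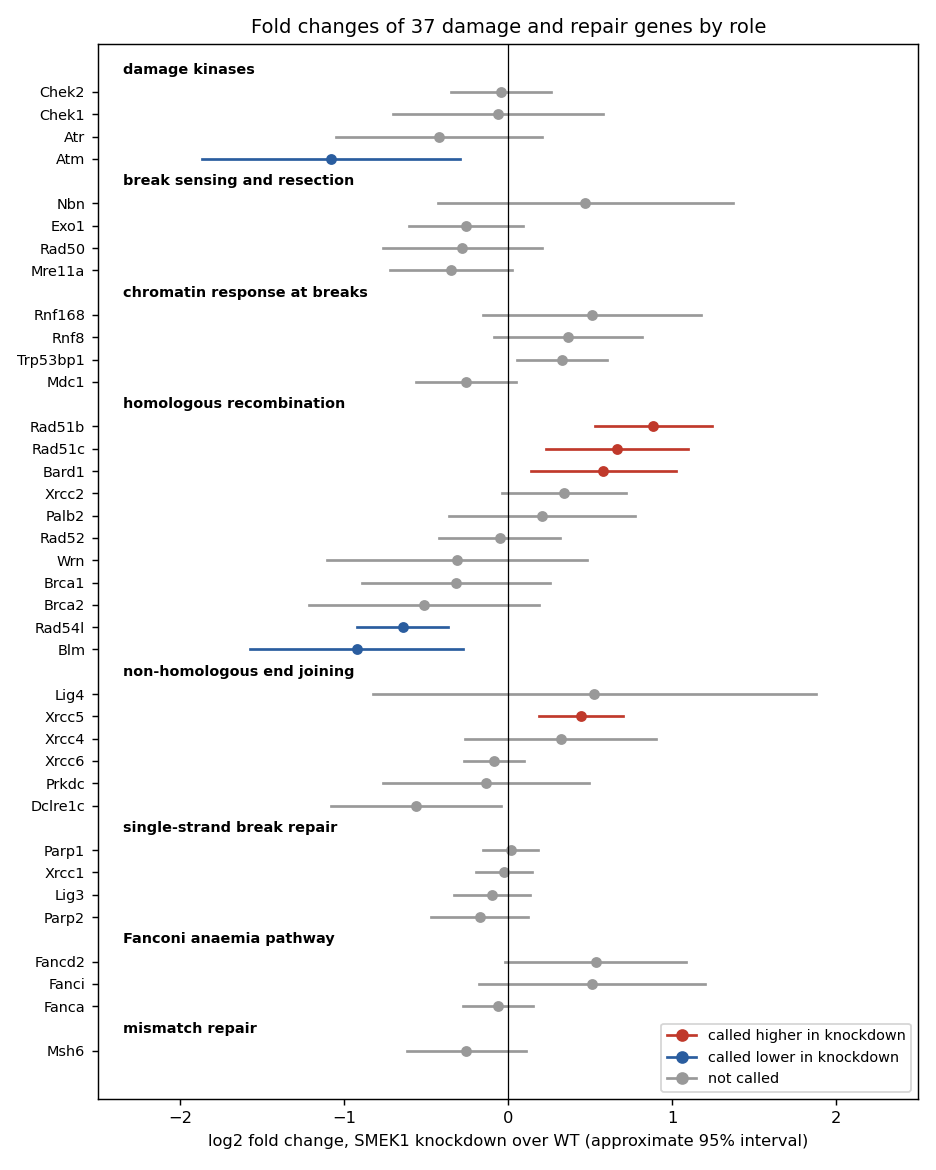
Log2 fold change of SMEK1 knockdown over WT (horizontal axis) for the 37 genes, grouped by role, with approximate 95% intervals from the edgeR fit over 3 libraries per group. Red marks genes called higher, blue genes called lower and grey genes that did not pass the test; the 4 genes called higher lie at 0.44 to 0.88 and the 3 called lower at -1.08 to -0.64.

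Of the 11 listed genes of homologous recombination 3 rose and 2 fell, with a median log2 fold change of -0.05. This share of 45.5% is near the 40.1% called among all genes tested. The listed subunits of BCDX2 and CX3 lay on the higher side. Rad51b, which codes for a subunit of the BCDX2 complex of recombination (chr12:79297282-79814690, GRCm38, plus strand), had 8.83, 10.4 and 10.1 CPM in knockdown A, B and C, against 5.29, 5.49 and 5.12 CPM in WT A, B and C. Every knockdown library stood above every WT library, and the WT values lay close together. The fold change was 0.88 on the log2 scale (SE 0.16, adjusted p = 0.00121, edgeR), a level at 185% of WT.

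Rad51c, a subunit of both the BCDX2 and the CX3 complex (chr11:87376645-87404954, minus strand), had 5.17, 5.60 and 5.78 CPM in knockdown A, B and C, against 3.45, 2.98 and 4.00 CPM in WT A, B and C. The groups did not overlap, and the fold change was 0.66 on the log2 scale (SE 0.20, adjusted p = 0.0190, edgeR). The call was lost without knockdown C (adjusted p = 0.0732) and without WT B (adjusted p = 0.0714, both edgeR). Xrcc2, the third BCDX2 subunit among the listed genes, averaged 9.55 ± 0.87 CPM across knockdown libraries and 7.56 ± 1.19 CPM across WT libraries (SD, n = 3 each), with overlap between the groups and a log2 fold change of 0.34 that did not pass the test (adjusted p = 0.141, edgeR).

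The remaining subunits of these complexes are on a wider recombination list and were read beside them. Rad51d, the remaining BCDX2 subunit, had 57.9, 44.8 and 50.2 CPM in the knockdown libraries, against 35.1, 36.8 and 37.9 CPM in the WT libraries (log2 0.48, SE 0.11, adjusted p = 0.00382, edgeR). The groups did not overlap for this gene. Xrcc3, the partner of RAD51C in CX3, averaged 21.1 ± 1.6 CPM across knockdown libraries and 18.2 ± 1.1 CPM across WT libraries (log2 0.21, adjusted p = 0.180, edgeR). Of the 5 subunit genes 3 were called higher, where 20.5% of all genes tested were called higher. Their median log2 fold change was 0.48, beside 0.01 over all genes tested. The 5 genes were grouped after their values were seen, so this count and median are a description.

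**Figure D2:**
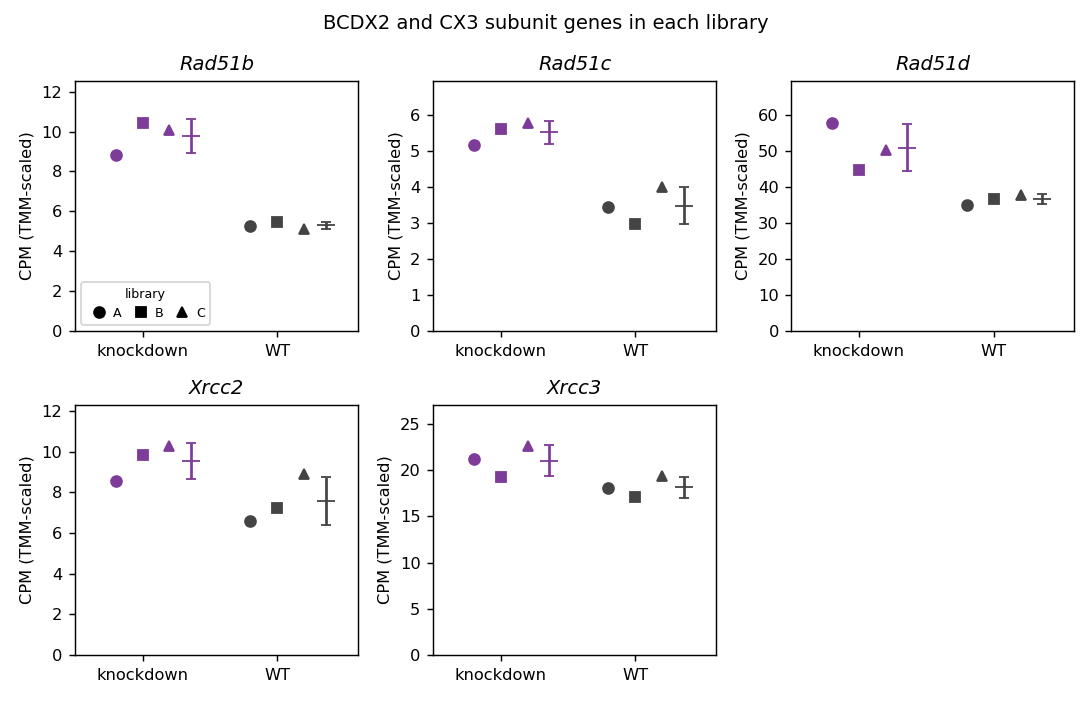
TMM-scaled CPM (vertical axes, from 0) of the 5 genes for BCDX2 and CX3 subunits in each library, knockdown on the left and WT on the right of each panel. Symbols mark libraries A, B and C and the bars give the mean ± SD over 3 libraries; Rad51b, Rad51c and Rad51d do not overlap between the groups, whereas the ranges of Xrcc2 and Xrcc3 do.

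Bard1, the RING partner that forms a ubiquitin ligase with BRCA1 (chr1:71027498-71103146, minus strand), had 5.33, 7.60 and 7.23 CPM in knockdown A, B and C, against 5.07, 4.06 and 4.36 CPM in WT A, B and C. Knockdown A lay just above WT A, and the other knockdown libraries stood clear of all WT libraries. The fold change was 0.58 on the log2 scale (SE 0.20, adjusted p = 0.0388, edgeR), and it was 0.81 with both A libraries left out (adjusted p = 0.00712, edgeR). The call was lost when either knockdown B, knockdown C, WT B or WT C was left out, with adjusted p-values of 0.10 to 0.13 (edgeR). The other tested genes within 5 Mb of Bard1, a span that holds Xrcc5, had a median log2 fold change of 0.15.

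Brca1, the other subunit of that ligase, had 2.40, 3.20 and 4.43 CPM in the knockdown libraries, against 5.07, 3.34 and 4.12 CPM in the WT libraries. The groups overlapped and the log2 fold change of -0.32 did not pass the test (SE 0.26, adjusted p = 0.358, edgeR). Per length, the FPKM of Bard1 was 3.13 ± 0.59 times that of Brca1 in the knockdown and 1.64 ± 0.17 times in WT (SD, n = 3 each). The ratio is given as a description, since the pair was chosen after the values were seen.

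Brca2, which codes for a mediator of recombination, had 1.41, 1.69 and 1.99 CPM in the knockdown libraries, against 3.40, 2.39 and 1.47 CPM in the WT libraries. The spread within WT was wider than the distance between the groups, and the log2 fold change of -0.51 did not pass the test (SE 0.32, adjusted p = 0.224, edgeR). Palb2, which bridges BRCA1 and BRCA2, averaged 3.92 ± 1.15 CPM across knockdown libraries and 3.41 ± 0.58 CPM across WT libraries (log2 0.21, adjusted p = 0.557, edgeR). Rad52, whose product anneals single strands, averaged 7.42 ± 0.97 CPM across knockdown libraries and 7.70 ± 0.47 CPM across WT libraries (log2 -0.05, adjusted p = 0.830, edgeR).

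The recombination genes that fell code for motor proteins acting on recombination intermediates. Rad54l, the RAD54 translocase that acts during strand invasion (chr4:116094264-116123690, minus strand), had 12.4, 11.6 and 11.4 CPM in knockdown A, B and C, against 17.3, 19.1 and 18.9 CPM in WT A, B and C. The groups were well separated, and the fold change was -0.64 on the log2 scale (SE 0.13, adjusted p = 0.00184, edgeR), a level at 64.0% of WT. Of its exon bases 15.4% are shared with Lrrc41 on the opposite strand, whose own log2 value was -0.19 (adjusted p = 0.0899, edgeR). No source used here says whether counting used strand, and reads in the shared bases cannot be told apart.

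Blm, the Bloom syndrome helicase that dissolves double Holliday junctions (chr7:80454733-80535119, minus strand), had 1.41, 2.13 and 1.85 CPM in knockdown A, B and C, against 3.94, 2.15 and 4.18 CPM in WT A, B and C. The groups touched, since knockdown B and WT B differed by less than the worth of 1 count. The fold change was -0.92 on the log2 scale (SE 0.30, adjusted p = 0.0274, edgeR). Leaving out knockdown A ended the call (adjusted p = 0.0888), as did leaving out knockdown C (0.0730), WT A (0.0768) and WT C (0.117). With both A libraries left out the log2 fold change was -0.67 (adjusted p = 0.146, all edgeR). Wrn, the related Werner helicase, averaged 1.28 ± 0.43 CPM across knockdown libraries and 1.59 ± 0.56 CPM across WT libraries (log2 -0.31, adjusted p = 0.525, edgeR).

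**Figure D3:**
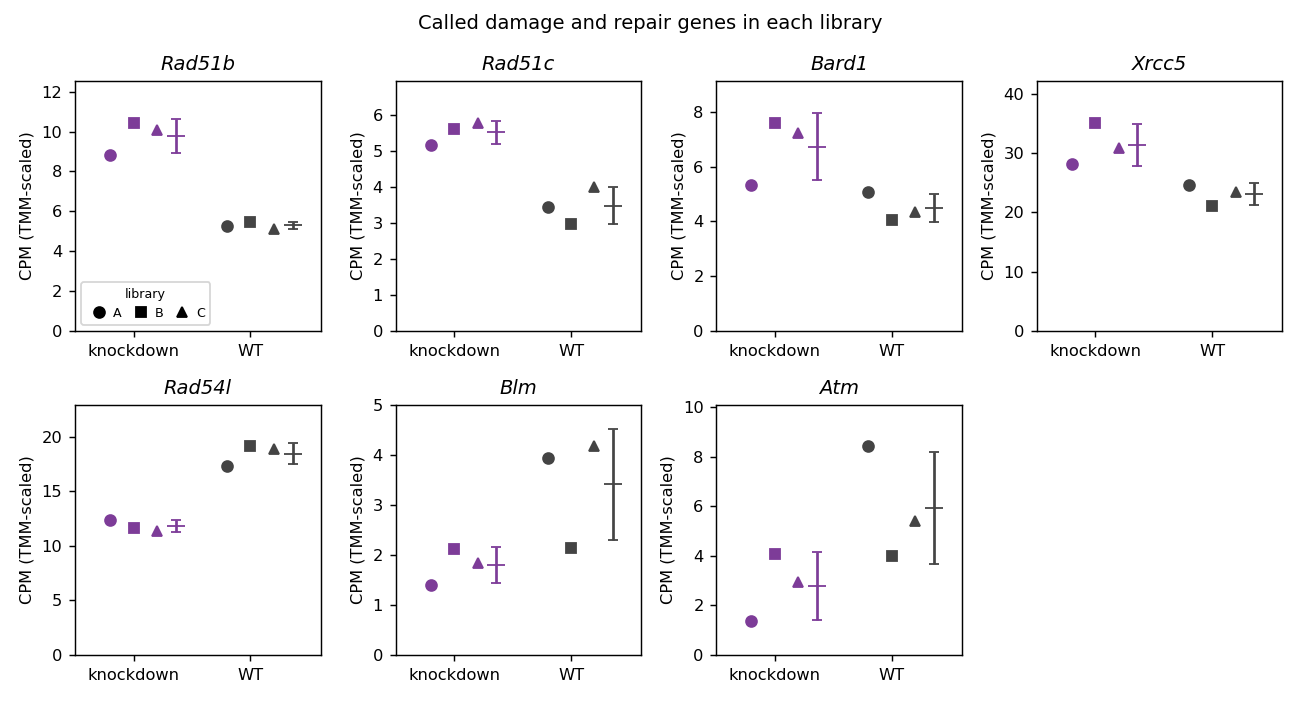
TMM-scaled CPM (vertical axes, from 0) of the 7 called repair genes in each library, knockdown on the left and WT on the right of each panel, with the mean ± SD over 3 libraries. Rad51b, Rad51c, Xrcc5 and Rad54l are clearly separated, Bard1 and Blm are separated by narrow gaps, and Atm overlaps, with knockdown A at 1.36 CPM and WT A at 8.42 CPM as its extremes.

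Many recombination genes are transcribed mainly in S and G2 phase, and markers of the cell cycle moved in the same libraries. Of 22 genes of G2 and M phase 11 rose and none fell (edgeR; 12 higher and 0 lower at an unadjusted p under 0.05, and 11 higher and 0 lower by DESeq2 and by limma-voom). Among all genes tested 20.5% were called higher and 19.6% lower. The summed level of the 22 genes of G2 and M phase was 1187 to 1473 CPM in knockdown libraries and 895 to 957 CPM in WT libraries. Aurka (log2 0.94), Ccnb2 (log2 0.85) and Ccna2 (log2 0.78), which drive or mark entry into mitosis, had the smallest adjusted p-values. Of 25 S phase genes 5 rose and 7 fell, a balance that turned to 8 higher and 3 lower with library totals, with summed levels of 2221 to 2411 CPM in knockdown libraries and 2296 to 2514 CPM in WT libraries. Mcm5 (log2 -0.60) and Cdc6 (log2 -0.64), which license replication origins, fell, while Gins4 (log2 0.68), a subunit of the replicative helicase, rose. In bulk RNA, fewer cells that carry a transcript and less of it per cell cannot be told apart, and the part of cell cycle phase in the repair gene values was not tested.

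Atm was the one damage kinase that passed the test. Its product is the kinase that answers double-strand breaks (chr9:53439149-53536740, minus strand), and it had 1.36, 4.09 and 2.94 CPM in knockdown A, B and C, against 8.42, 4.00 and 5.42 CPM in WT A, B and C. Knockdown B lay above WT B, so the groups overlapped, and the extremes were the A libraries. The fold change was -1.08 on the log2 scale (SE 0.36, adjusted p = 0.0320, edgeR). With both A libraries left out it was -0.42 and the call was lost (adjusted p = 0.221, edgeR), and it also ended when knockdown A (0.0931), knockdown C (0.0750), WT A (0.127) and WT C (0.0595) were left out singly.

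Atr, the kinase that answers stalled replication forks, had 2.19, 2.35 and 2.49 CPM in the knockdown libraries, against 4.37, 3.04 and 2.00 CPM in the WT libraries. The knockdown values lay within the WT range, and the fold change was -0.42 on the log2 scale (SE 0.29, adjusted p = 0.262, edgeR). Chek1, which carries the ATR signal, had 2.25, 4.58 and 4.07 CPM in the knockdown libraries, against 4.75, 3.94 and 2.71 CPM in the WT libraries (log2 -0.06, adjusted p = 0.884, edgeR). Chek2, which carries the ATM signal, had 15.7, 14.0 and 17.3 CPM in the knockdown libraries, against 14.5, 17.8 and 16.1 CPM in the WT libraries (log2 -0.04, adjusted p = 0.834, edgeR). The approximate 95% interval of the difference for Chek2, -0.35 to 0.26 on the log2 scale, was narrower than that for Chek1, -0.70 to 0.58, and for both checkpoint kinases the groups overlapped.

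Among the genes of break sensing and resection no call was made. Of these 4 genes 0 passed an unadjusted p under 0.05 with edgeR, and 0 were called by DESeq2 or limma-voom. The MRE11 complex binds broken ends, and its 3 subunits had values on both sides of 0. Mre11a, the nuclease, averaged 9.08 ± 0.53 CPM across knockdown libraries and 11.6 ± 2.1 CPM across WT libraries (log2 -0.35, adjusted p = 0.122, edgeR). Rad50, the coiled-coil ATPase, averaged 7.02 ± 1.63 CPM across knockdown libraries and 8.54 ± 1.96 CPM across WT libraries (log2 -0.28, adjusted p = 0.339, edgeR). Nbn, which couples the complex to ATM, had 1.25, 3.73 and 2.62 CPM in knockdown A, B and C, against 2.48, 2.09 and 0.942 CPM in WT A, B and C (log2 0.47, adjusted p = 0.389, edgeR). Knockdown A was the low library for Nbn and WT A the high one, and without both the log2 fold change was 1.07 (adjusted p = 0.0445, edgeR). Exo1, which resects ends over long distances, averaged 11.0 ± 1.8 CPM across knockdown libraries and 13.1 ± 0.7 CPM across WT libraries (log2 -0.26, adjusted p = 0.223, edgeR).

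The chromatin response at breaks had no call in the fit over all 6 libraries, with 1 of 4 genes at an unadjusted p under 0.05, 0 called by DESeq2 and 1 by limma-voom. That gene was Trp53bp1, whose product 53BP1 shields ends from resection and is a reported PP4 substrate. It had 19.5, 19.0 and 18.6 CPM in knockdown A, B and C, against 16.5, 15.4 and 13.6 CPM in WT A, B and C. Each knockdown library stood above each WT library, the fold change was 0.33 on the log2 scale (SE 0.13), and the adjusted p of 0.0567 (edgeR) missed the threshold. Without the A libraries it was 0.37 (adjusted p = 0.0488, edgeR). Of its exon bases 15.0% are shared with Tubgcp4 on the opposite strand.

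RNF8 and RNF168 are ubiquitin ligases that mark chromatin around breaks, and MDC1 is the scaffold that reads phosphorylated H2AX. Rnf8 averaged 5.56 ± 0.74 CPM across knockdown libraries and 4.31 ± 0.75 CPM across WT libraries (log2 0.36, adjusted p = 0.182, edgeR). Rnf168 had 4.55, 10.6 and 6.55 CPM in knockdown A, B and C, against 6.91, 4.18 and 4.12 CPM in WT A, B and C (log2 0.51, adjusted p = 0.202, edgeR). Without the A libraries the log2 fold change of Rnf168 was 1.04 (adjusted p = 0.00740, edgeR), on a chromosome, 16, whose other tested genes had a median of 0.40 with all libraries. Mdc1 averaged 38.6 ± 7.1 CPM across knockdown libraries and 46.2 ± 6.2 CPM across WT libraries (log2 -0.26, adjusted p = 0.162, edgeR).

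In non-homologous end joining 1 of 6 genes was called, and it rose. That is 16.7%, beside 40.1% of all genes tested that were called. Xrcc5, which codes for the Ku80 subunit of the Ku ring that grips broken ends (chr1:72307421-72394952, plus strand), had 28.2, 35.1 and 30.8 CPM in knockdown A, B and C, against 24.7, 21.1 and 23.5 CPM in WT A, B and C. The groups did not overlap, and the fold change was 0.44 on the log2 scale (SE 0.12, adjusted p = 0.0107, edgeR). The other tested genes of chromosome 1 had a median of 0.09, and those within 5 Mb of Xrcc5 had 0.17. Xrcc6, which codes for its Ku70 partner, had 70.9, 76.2 and 80.8 CPM in the knockdown libraries, against 75.3, 83.3 and 83.6 CPM in the WT libraries. Its groups overlapped, with a log2 fold change of -0.09 and an interval of -0.27 to 0.09 (adjusted p = 0.431, edgeR). Per length, the Xrcc5 to Xrcc6 ratio of FPKM was 0.723 ± 0.073 in the knockdown and 0.503 ± 0.065 in WT (SD, n = 3 each, as a description).

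The other end joining genes did not pass the test. Prkdc, the catalytic subunit of DNA-PK that Ku recruits, had 3.29, 3.55 and 4.74 CPM in the knockdown libraries, against 6.32, 3.10 and 3.30 CPM in the WT libraries (log2 -0.14, adjusted p = 0.732, edgeR). It lies on chromosome 16, where the median over the other tested genes was 0.40. Dclre1c, which codes for the end-processing nuclease Artemis, averaged 2.90 ± 0.56 CPM across knockdown libraries and 4.30 ± 0.83 CPM across WT libraries, without overlap (log2 -0.56, adjusted p = 0.0785, edgeR). Xrcc4, the scaffold of the final ligation, averaged 2.54 ± 0.37 CPM across knockdown libraries and 2.03 ± 0.51 CPM across WT libraries (log2 0.32, adjusted p = 0.364, edgeR).

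Lig4, the ligase that XRCC4 holds, was the least abundant of the 37 genes by CPM, with 55 counts over the knockdown libraries and 31 over the WT libraries. Its levels were 0.209, 1.33 and 0.949 CPM in knockdown A, B and C, against 1.08, 0.358 and 0.294 CPM in WT A, B and C. The A library was the lowest of the knockdown group and the highest of the WT group. The log2 fold change was 0.52 with all libraries (adjusted p = 0.530) and 1.79 without the A libraries (adjusted p = 0.0166, both edgeR).

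Single-strand break repair held the most abundant genes, and none was called (0 of 4 at an unadjusted p under 0.05 with edgeR, and 0 by DESeq2 or limma-voom). Parp1, the poly(ADP-ribose) polymerase that detects strand breaks, had 168, 186 and 172 CPM in knockdown A, B and C, against 168, 171 and 181 CPM in WT A, B and C. The groups overlapped fully, and the log2 fold change of 0.02 had an interval of -0.15 to 0.18 (SE 0.08, adjusted p = 0.882, edgeR). Xrcc1, the scaffold recruited by PARP1, had a log2 fold change of -0.03 with an interval of -0.19 to 0.14. Lig3, its ligase partner, had -0.10 with an interval of -0.33 to 0.13, and 25.1% of its exon bases are shared with Rffl on the opposite strand. Parp2 had a log2 fold change of -0.17 with an interval of -0.47 to 0.12. It lies on chromosome 14, where the other tested genes had a median of -0.32. Of the 37 genes these had some of the narrowest intervals, and the signs of Parp1, Xrcc1 and Lig3 turned with the scaling or with a library left out.

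The Fanconi anaemia pathway unlinks DNA crosslinks, and none of its 3 listed genes passed the test (0 at an unadjusted p under 0.05 with edgeR, and 0 by DESeq2 or limma-voom). FANCD2 and FANCI form the clamp that the pathway ubiquitinates, and their genes had like values. Fancd2 had 5.02, 8.89 and 8.99 CPM in knockdown A, B and C, against 6.53, 5.19 and 4.12 CPM in WT A, B and C (log2 0.53, adjusted p = 0.113, edgeR). Fanci had 2.09, 4.84 and 3.98 CPM in knockdown A, B and C, against 3.18, 1.91 and 2.59 CPM in WT A, B and C (log2 0.51, adjusted p = 0.221, edgeR). Of the 5774 exon bases of Fanci 921 are shared with Polg on the opposite strand, which had a mean of 75.8 CPM, and without strand the reads of the overlap cannot be told apart. In both genes knockdown A was the lowest of its group and WT A the highest of its group. Without these libraries the log2 fold changes were 0.94 for Fancd2 (adjusted p = 0.00328) and 0.97 for Fanci (adjusted p = 0.0147, both edgeR). Fanca, a subunit of the core ligase complex, averaged 26.3 ± 0.3 CPM across knockdown libraries and 27.5 ± 0.8 CPM across WT libraries. Its groups did not overlap, yet the log2 fold change was -0.06 with an interval of -0.28 to 0.15 (adjusted p = 0.636, edgeR).

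Msh6, whose product recognises mismatches, was the one mismatch repair gene listed. It averaged 23.5 ± 4.3 CPM across knockdown libraries and 28.0 ± 6.0 CPM across WT libraries (log2 -0.25, adjusted p = 0.243, edgeR). With the A libraries left out the log2 fold change was 0.04.

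Leaving out both A libraries changed which genes were called. In that fit, chosen after the data were seen, 10 of the 37 genes were called higher and 1 lower, or 29.7%, below the 41.2% called among all 12423 genes tested in it (20.3% higher and 20.9% lower). The median log2 fold change was 0.04, beside 0.03 over all genes. Rad51b, Rad51c, Bard1, Xrcc5 and Rad54l kept their calls and direction. Nbn, Trp53bp1, Rnf168, Lig4, Fancd2 and Fanci were called higher in addition, while Atm and Blm were no longer called. Knockdown A was low and WT A high for many of the 37 genes, so leaving both out raises those fold changes by construction. The gained and lost calls are therefore a description and no support for a rise. The first component of the differences within groups took 47.4% of that variance, and it set knockdown A and WT B against knockdown B and WT A. Its values were 0.54 for knockdown A and 0.42 for WT B, against -0.50 for knockdown B and -0.52 for WT A. The B libraries thus lay about as far out as the A libraries, on the opposite side.

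Deviations of the A libraries moved with gene length over all genes tested. Length is the value that the count table lists for each gene. Across the 12269 genes, which are not independent replicates, longer genes were lower in knockdown A relative to knockdown B and C (Spearman's rho -0.24) and higher in WT A relative to WT B and C (rho 0.34). Over the 37 repair genes the same values of rho were -0.03 for knockdown A and 0.20 for WT A, as a description. Their deviations were present in each length class that they fill. The median deviation of knockdown A was -0.22 for the 6 repair genes of 2 to 4 kb and -0.29 for the 15 of 4 to 6 kb, where all genes had 0.07 and 0.02. That of WT A was 0.12 and 0.31 for the same repair genes, where all genes had -0.09 and -0.01. Among genes over 6 kb the median deviation of knockdown A was -0.15 on the log2 scale for all genes and -0.39 for the 16 repair genes of that length, and that of WT A was 0.10 for all genes and 0.40 for the repair genes. Over the 37 repair genes, which share their libraries and their scaling, length and log2 fold change had a rho of -0.58, and without the A libraries the rho was -0.46. Over all genes tested the same rho was -0.03, and 0.09 without the A libraries. The repair genes over 6 kb had a median log2 fold change of -0.28, beside -0.05 for all genes of that length, and of -0.06 beside 0.06 without the A libraries. Rad54l, with 7.706 kb, had a deviation of knockdown A of 0.10 and of WT A of -0.13, opposite in sign to the medians of its length class. What lies behind the deviation of the A libraries was not tested.

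**Figure D4:**
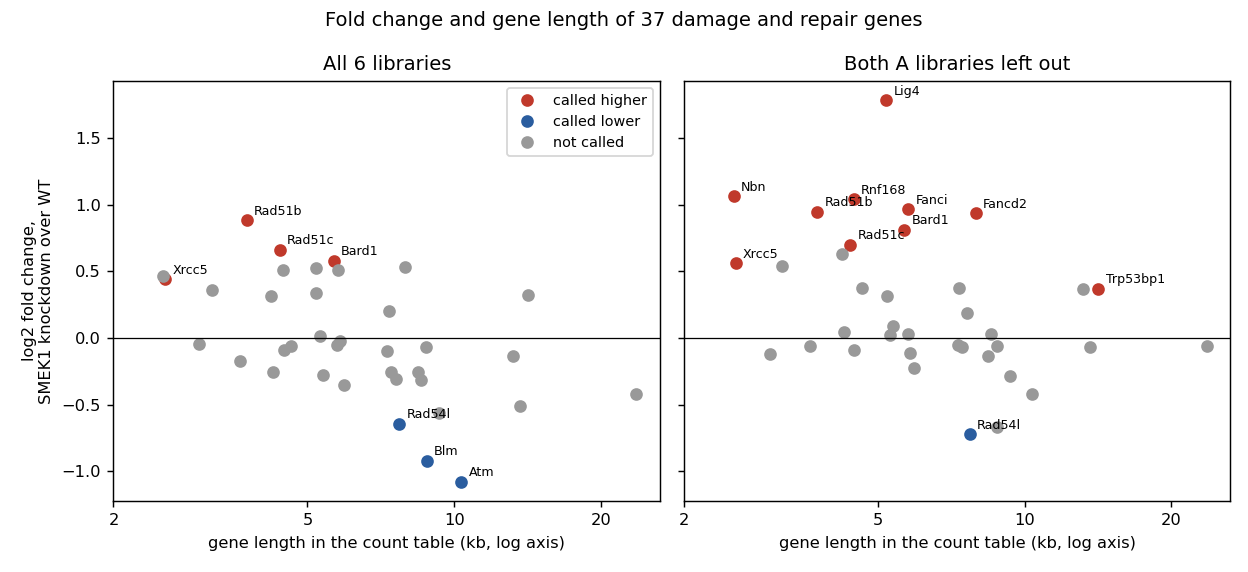
Log2 fold change of knockdown over WT (vertical axis) against gene length in kb (horizontal log axis) for the 37 repair genes, with all 6 libraries on the left and without both A libraries on the right. Red marks genes called higher, blue genes called lower and grey genes not called; Atm and Blm are blue on the left alone, and 6 further genes are red on the right.

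Compared per length by the FPKM of the authors, the 37 genes spanned a range of 295-fold in WT. Parp1 was the highest with 32.8 ± 1.3 FPKM in the knockdown and 32.7 ± 1.2 FPKM in WT (SD, n = 3 each). Xrcc6 followed with 16.8 ± 1.0 FPKM in the knockdown and 18.0 ± 1.0 FPKM in WT, and Xrcc1 with 17.4 ± 1.2 FPKM in the knockdown and 17.8 ± 0.8 FPKM in WT, so that these neighbours in the order did not differ beyond their spread. Xrcc5 came next with 12.1 ± 1.2 FPKM in the knockdown and 9.01 ± 0.72 FPKM in WT. Msh6, Mdc1 and Chek2, between 5.14 and 5.46 FPKM in the knockdown and between 5.36 and 6.57 FPKM in WT, lay within each other's spread.

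Lig4, Atr, Brca2, Wrn and Prkdc had the lowest WT means per length. Atr had 0.098 ± 0.006 FPKM in the knockdown and 0.133 ± 0.050 FPKM in WT, Brca2 had 0.123 ± 0.020 FPKM in the knockdown and 0.177 ± 0.071 FPKM in WT, and Lig4 had 0.157 ± 0.107 FPKM in the knockdown and 0.111 ± 0.084 FPKM in WT. These 3 genes were not separated beyond their spread in WT. The order of the 37 genes was close between the groups (Spearman's rho 0.97, as a description over genes). Rad51b stood at rank 11 in the knockdown, and Rad54l at rank 15.

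**Figure D5:**
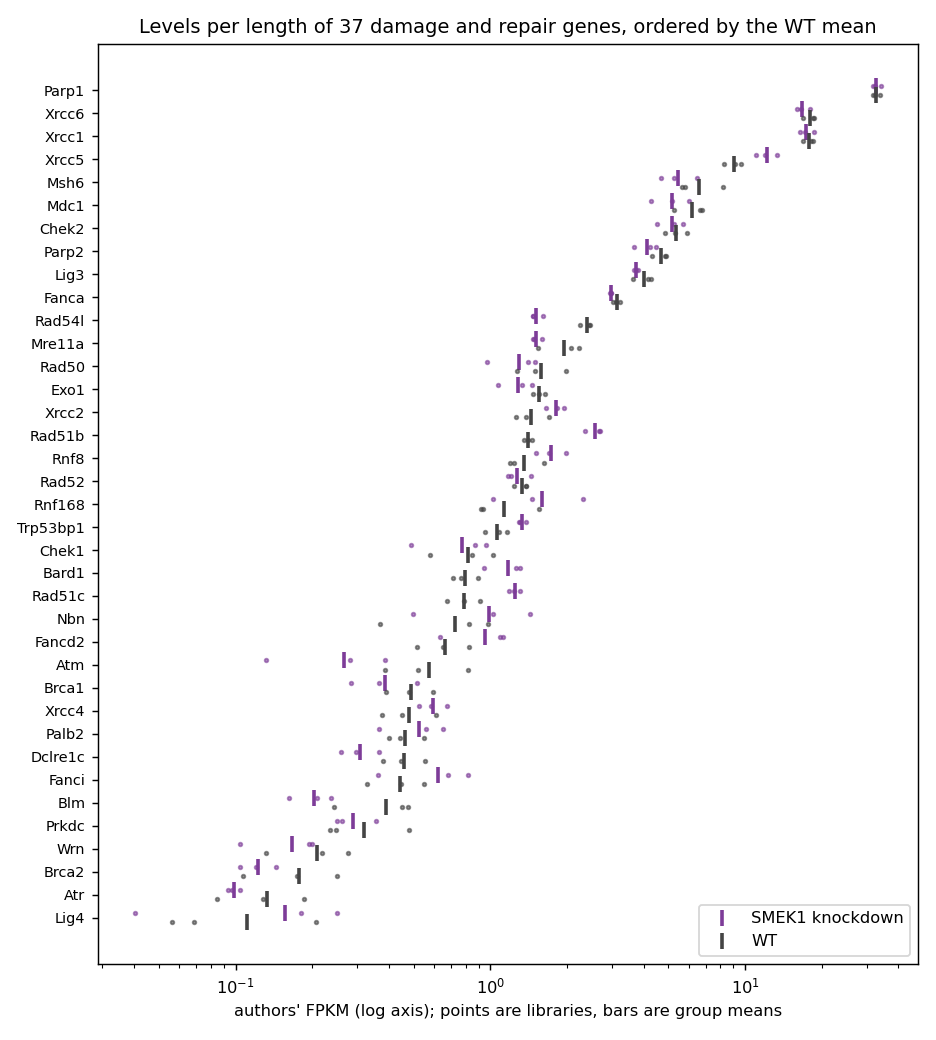
FPKM of the authors (horizontal log axis) for the 37 genes, ordered from the highest WT mean at the top. Purple marks knockdown and black WT, points are libraries and bars are group means; Parp1, Xrcc6 and Xrcc1 are highest, and Rad51b and Rad51c lie to the right of WT while Rad54l lies to the left.

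Promoter sequence was compared because several of the genes that rose belong to the same recombination complexes. RefSeq promoters on GRCm38.p6, 250 bases before to 50 bases after each start, were in the table used for 30 of the 37 genes. They were searched on both strands for the E2F-type words TTTCCCGC, TTTGGCGC, TTTCGCGC and TTTGCCGC, words bound by factors of the G1 to S transition, and for the CHR-type word TTTGAA, found in genes of G2 and M phase. TTTCCCGC was present in 7 of the 30 genes, or 23.3%, beside 2.52% of the 8967 tested genes in the table and 1.24% of all its 27025 genes. TTTCGCGC was present in 1 of the 30, and TTTGGCGC and TTTGCCGC were present in 0. Any of the 4 E2F-type words was present in 7 of the 30, beside 4.96% of the tested genes in the table. TTTGAA was present in 3 of the 30, or 10.0%, beside 14.3% of the tested genes in the table and 20.2% of all its genes. The windows that hold TTTCCCGC follow as the evidence for that count, each read 5′ to 3′ on the strand of the gene, with the word or its reverse complement in capitals.
Bard1 (chr1:71103163-71103192, minus strand): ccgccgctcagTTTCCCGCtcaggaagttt
Rad51c (chr11:87404941-87404970, minus strand): cccccgcgaggGCGGGAAAagcaaggggtc
Brca2 (chr5:150522442-150522471, plus strand): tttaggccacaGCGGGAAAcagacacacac
Chek2 (chr5:110839820-110839849, plus strand): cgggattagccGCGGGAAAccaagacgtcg
Xrcc6 (chr15:82016312-82016341, plus strand): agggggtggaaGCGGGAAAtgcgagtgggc
Mdc1 (chr17:35841471-35841500, plus strand): tcttcagcctgTTTCCCGCcggtagccgca
Msh6 (chr17:87975054-87975083, plus strand): ctcctcccgacTTTCCCGCcagcggcggcc

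Of these 7 genes Bard1 and Rad51c were called higher, and the other 5 did not pass the test. Over all genes tested 20.5% were called higher, and 7 genes are too few to set against that share. Rad51c also held TTTCGCGC, 12 to 19 bases from another of its starts. Bard1 was the one gene with both kinds of word, at 242 to 237 bases (TTTGAA) and 209 to 202 bases (TTTCCCGC) before its start, and the words do not overlap. TTTGAA was also present in Rad51b, which was called higher, and in Rnf8, which was not called. The 250 bases before the Bard1 start are shown because they hold both words, in capitals, at chr1:71102973-71103222 on the minus strand of GRCm38.p6.
Bard1: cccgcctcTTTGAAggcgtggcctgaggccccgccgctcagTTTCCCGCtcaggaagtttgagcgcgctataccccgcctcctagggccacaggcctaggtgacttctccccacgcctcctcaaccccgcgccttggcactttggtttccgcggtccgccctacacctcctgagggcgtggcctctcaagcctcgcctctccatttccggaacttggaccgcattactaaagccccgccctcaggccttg
A match of letters is a description of these windows and not a bound site.

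The wider repair pathways were read from 7 further lists that hold 107 tested genes, of which 17 rose and 16 fell. These were 30.8%, beside 40.1% of all genes tested. The median log2 fold change of the 107 genes was 0.08 (0.24 with library totals, and then 33 higher and 8 lower). Base excision and single-strand break repair had the most calls, 4 higher and 7 lower of 20 genes, with a median of -0.13, which was 0.03 with library totals. Smug1, a uracil glycosylase, fell the most, with 8.47, 9.29 and 8.36 CPM in knockdown A, B and C, against 18.3, 20.1 and 19.9 CPM in WT A, B and C (log2 -1.16, SE 0.13, adjusted p = 4.41e-05, edgeR). Nthl1, the glycosylase of oxidised pyrimidines, rose (log2 0.65, adjusted p = 9.28e-04, edgeR). Named after their values were seen, the other genes that fell were Ung, Tdg, Apex1, Fen1, Lig1 and Parp3, with log2 fold changes of -0.57 to -0.33, and Polb and Aptx were among those that rose, both with 0.65. Apex1 lies on chromosome 14, where the other tested genes had a median of -0.32.

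On the other Fanconi anaemia list 3 of 13 genes rose and 2 fell, or 38.5%, beside 40.1% of all genes tested. The shares called on the lists below were 31.8% in recombination, 30.8% in end joining, 23.1% among checkpoint adaptors and 15.0% in nucleotide excision repair. These too lay below the share of all genes tested. Ube2t (log2 0.71) and Fancl (log2 0.92), the conjugating enzyme and the ligase that put ubiquitin on FANCD2 and FANCI, rose, with 6.95, 7.86 and 9.26 CPM of Fancl in the knockdown libraries, against 3.89, 3.88 and 5.00 CPM in the WT libraries. Fancm, the helicase that anchors the core complex, fell (log2 -1.08, adjusted p = 0.0145, edgeR). Its call held under 13 of the 17 alternatives that tested it and was lost, among others, without both A libraries (adjusted p = 0.107, edgeR). Of 22 other recombination genes 5 rose and 2 fell, among them Eme1, a subunit of a structure-specific nuclease (log2 0.74, adjusted p = 0.00256, edgeR). Of 13 other end joining genes 2 rose and 2 fell, with Shld1 of the shieldin complex (log2 0.60) and Nhej1 (log2 0.58) higher and Paxip1 (log2 -0.45) lower, and with library totals 5 were higher and 1 lower. Nhej1 lost its call under 5 of 19 alternatives, among them knockdown C (adjusted p = 0.127), WT A (0.0766), WT B (0.0708) or both A libraries (0.0502, all edgeR) left out. Of 13 checkpoint adaptors and mediators Cdc25c rose (log2 0.78) and Timeless (log2 -0.32) and Wee1 (log2 -0.42) fell, whereas with library totals 3 were higher and 0 lower. Timeless lost its call under 7 of 19 alternatives, with an adjusted p of up to 0.251, and Wee1 under 10, with an adjusted p of up to 0.188 (edgeR). In nucleotide excision repair 2 of 20 genes rose, among them Gtf2h3 (log2 0.42), and Ddb1 fell (log2 -0.35), and with library totals 9 were higher and 1 lower. The call of Gtf2h3 held under 13 of 19 alternatives and was lost, among others, without both A libraries (adjusted p = 0.124, edgeR). Of 6 other mismatch repair genes none was called (0 at an unadjusted p under 0.05 with edgeR, and 0 by DESeq2 or limma-voom).

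The subunits of PP4 and its reported substrates in the damage response were read because SMEK1 is a PP4 subunit. Besides Ppp4r3a, its paralogue Ppp4r3b (SMEK2) fell (log2 -0.74, SE 0.22, adjusted p = 0.0179, edgeR). That call held under 12 of 19 alternatives. It was lost with library totals (adjusted p = 0.0819), a replicate block (0.0738) and both A libraries left out (0.110, all edgeR). Leaving out knockdown A, knockdown C, WT A or WT C singly also ended it (adjusted p = 0.0595 to 0.0726, edgeR). The catalytic subunit Ppp4c (log2 -0.18, adjusted p = 0.102), Ppp4r1 (log2 0.15, adjusted p = 0.207) and Ppp4r2 (log2 0.46, adjusted p = 0.121, all edgeR) did not pass the test, and Ppp4r4 had 0 counts in all libraries. Without both A libraries Ppp4c was called lower (log2 -0.27, adjusted p = 0.0113) and Ppp4r2 higher (log2 0.79, adjusted p = 0.00628, both edgeR).

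Of 5 genes whose proteins are reported PP4 substrates 4 fell. Among all genes tested 19.6% were called lower, and 5 genes are too few to set against that share. With library totals 2 of the 5 were lower and Trp53bp1 was higher. Rpa2, the subunit of the complex that coats single-stranded DNA, had 51.4, 41.4 and 53.9 CPM in knockdown A, B and C, against 80.4, 95.5 and 91.2 CPM in WT A, B and C. The groups were far apart, and the fold change was -0.87 on the log2 scale (SE 0.11, adjusted p = 8.62e-05, edgeR). Its partner Rpa1 averaged 77.8 ± 4.4 CPM across knockdown libraries and 82.4 ± 4.3 CPM across WT libraries, and the Rpa2 to Rpa1 ratio of FPKM was 1.18 ± 0.20 in the knockdown and 2.01 ± 0.13 in WT (SD, n = 3 each, as a description). The other 3 that fell did so by less, with log2 fold changes of -0.38 for Ccar2, -0.29 for Trim28, the heterochromatin corepressor KAP1, and -0.23 for H2afx, the histone variant phosphorylated at breaks. Ccar2 lies on chromosome 14, where the other tested genes had a median of -0.32. H2afx lost its call in 11 of 19 alternatives, among them library totals (adjusted p = 0.502) and both A libraries left out (0.119), and Trim28 in 4, among them library totals (0.0998, all edgeR), without a change of sign. Trp53bp1, the fifth, had the positive value given above.

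Targets of p53, the transcription factor that ATM and CHK2 activate, were read as a further list. Of 15 tested 7 rose and 2 fell, with a median log2 fold change of 0.24. Among all genes tested 20.5% were called higher and 19.6% lower, with a median of 0.01. With library totals 9 of the p53 targets were higher and 1 lower, and without both A libraries 5 were higher and 2 lower. Activity of p53 was not tested. Plk2 (log2 0.98) and Aen (log2 0.83), a kinase and an apoptotic nuclease, rose, and Btg2, an antiproliferative factor, fell (log2 -3.14, SE 0.36, adjusted p = 3.97e-05, edgeR).

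The label of a microglial line was checked against defining markers. Of 11 microglial markers 9 were tested, and 3 rose and 4 fell, or 77.8%, beside 40.1% of all genes tested. Their summed levels were 3099 to 3392 CPM in knockdown libraries and 3406 to 3782 CPM in WT libraries. Csf1r fell (log2 -0.73), and Tmem119 rose (log2 1.00), whereas P2ry12 and Cx3cr1 were too low to test. Summed markers of neurons reached at most 1.81 CPM in knockdown libraries and 0.706 CPM in WT libraries, and those of astrocytes, endothelial cells and fibroblasts at most 0.271 CPM in knockdown libraries and 0.216 CPM in WT libraries. Map2, Snap25, Syt1, Aqp4, Aldh1l1, Gja1, Cldn5, Cdh5, Col1a2, Dcn and Pdgfra had 0 counts in all libraries. The oligodendrocyte list summed to 7.15 to 7.26 CPM in knockdown libraries and 2.53 to 2.81 CPM in WT libraries, nearly all from Mbp, while Mog and Mobp were at 0.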

How the data were processed

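The deposited table holds whole-number counts per gene, made by the authors, for the 6 libraries, with the gene length in bases that the authors list and that was used as such. The authors also deposited FPKM, used for levels per length. Genome build GRCm38 (mm10) comes from the submitters' processing notes. The sources used here name no aligner, counter, strand setting or annotation version. All 37 genes matched by symbol, and 35 have the same start and end in GENCODE M21.

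The test was that of edgeR 4.0.16 under R 4.3.3 (filterByExpr, TMM, glmQLFit and glmQLFTest, no covariates, Benjamini-Hochberg adjustment over 12269 genes), with calls at an adjusted p under 0.05. Each SE is the log2 value over the root of the F statistic, and intervals are approximate 95% intervals. CPM are TMM-scaled, with means ± SD over 3 libraries per group. The script was tested on simulated data. The genes and lists were chosen with earlier results of these data known. All 37 genes are given. Library values go to called genes and to a fixed set of kinases, BRCA genes, Parp1 and Trp53bp1, and of other lists up to 3 called genes with the smallest adjusted p are named, with all PP4 subunits and substrates. Other genes given by library (Nbn, Rnf168, Xrcc6, Lig4, Fancd2, Fanci and the BCDX2 and CX3 subunits) were chosen after their values were seen. The medians of a chromosome are over its other tested genes.

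Alternatives were 3 other scalings, 2 other filters, DESeq2 1.42.0, limma-voom and limma 3.58.1 on log2 FPKM (pseudocount 1 or 0.1, genes at 0.5 FPKM or more on average), a replicate block, protein-coding genes only, an adjusted p under 0.01, each library left out, and, added after the data were seen, both A libraries left out and the first residual component as a covariate. Protein sequences were not used here, and some genes of the lists are counted but not reported singly here. Intervals cover the spread between libraries as edgeR models it.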

Additional observations from a re-analysis of the deposited data

How the results depend on the processing

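Rad51b and Rad54l were called in the same direction under all 19 alternatives of scaling, filter, model and libraries, which leave out the stricter threshold below, Xrcc5 under 18, Rad51c under 16 and Bard1 under 12. Blm was called under 10 and Atm under 9 of the 17 alternatives that tested them, without a change of sign. Of the 30 genes not called 19 were called under no alternative, 11 under at least 1, and 13 changed sign under at least 1; the causes were not tested. With library totals 1 gene was lower, and with limma on log2(FPKM + 1) or on log2(FPKM + 0.1), which tested 27 of the genes, 1 was lower. At an adjusted p under 0.01, 1 gene was higher (Rad51b), 1 was lower (Rad54l) and 3181 of all genes were called. Without both A libraries 10 were higher and 1 was lower (29.7%, beside 41.2% of all genes), and with the first residual component as a covariate 8 were higher and 7 lower (40.5%, beside 56.0% of all genes). Leaving out each library in turn gave 2 to 6 genes higher and 1 to 4 lower, where 29.5% to 39.1% of all genes were called.

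Libraries that share a letter did not deviate alike from their group means, and these values cannot decide whether the letters mark a pairing. Deviations from the group means of same-letter libraries had correlations of -0.36, -0.33 and 0.0025, and those of knockdown B and WT A of 0.41. With a replicate block 1 gene was higher, 1 was lower and 3326 of all genes were called. Depth limits the low genes: Lig4 rests on 55 counts in the knockdown and 31 in WT, and its interval spans -0.83 to 1.87 on the log2 scale.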
